A study of Mus musculus with 3 samples.

Results

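Ribosome production in the nucleolus was followed through 49 genes in mouse T-helper 1 cells: the subunits and factors of RNA polymerase I, the proteins of the small nucleolar ribonucleoproteins (snoRNPs), nucleolar scaffolds and chaperones, and assembly factors of both ribosomal subunits. The members were taken by symbol from a list of genes of this function, which was drawn up with earlier results of these data known, and all 49 were found among the 50600 gene rows, 21764 of them protein-coding. RNA came from primary cells labelled T-helper 1, of mouse strain C57BL/6NJ, and 3 biological replicates formed the only group. Each replicate has its own biosample record, all 3 share 1 donor record, and the labels point to a protocol for differentiating CD4+ T cells. Age and sex were not given, the file headers carried a 16 hr tag, and total RNA was named as the molecule although the library protocol was named for poly(A) RNA. With no second condition in the series, levels were described within libraries and set against the spread of the 3 libraries, without a test. Nothing in the labels says that the replicates came from separate animals, so this spread may be partly technical.

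Ribosomal RNA is transcribed by RNA polymerase I as a long precursor, which is folded, modified and cut in the nucleolus while ribosomal proteins are added. Box C/D snoRNPs place methyl groups on the ribose and box H/ACA snoRNPs convert uridine to pseudouridine, each guided by a small nucleolar RNA (snoRNA). Activated T cells enlarge their nucleoli and raise ribosome production before they divide, and the transcription factor Myc is a known driver of these genes through the E-box sequence.

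Gene counts summed to 4764598, 2568928 and 2815439 in replicates 1, 2 and 3, and 1 TPM, the length-scaled level relative to all transcripts of a library, stood for 2.25, 1.28 and 1.59 counts per kilobase of gene. Of the T cell markers 8 of 8 were detected, with Cd4 at 186 TPM ± 60.3 (SD, n = 3) and their summed level at 1475, 1109 and 715 TPM in replicates 1, 2 and 3. The defining Th1 genes were near 0: the regulator Tbx21 had 2, 10 and 2 counts, the cytokine Ifng 1, 0 and 0, and the receptor Cxcr3 0, 0 and 1. Of 5 Th1 markers 2 were detected, Il12rb2 and Stat4, and Il12rb2 shares 1519 exon bases with a gene of the opposite strand. Among markers of other cells, Lyz2, Adgre1, Ncr1, Cd8a, Hba-a1 and Col1a1 had no count in any library, and 4 of 21 were detected, of which Csf1r and Alas2 overlap a gene of the opposite strand while Cd8b1 (17.4 TPM ± 10.7) and Pecam1 (3.01 TPM ± 0.990) do not. Replicate 3 stood apart in composition: genes whose exons share bases with an opposite-strand gene held 56.1% and 60.3% of all counts in replicates 1 and 2, and 71.6% in replicate 3. Values that rest on this are given below with and without such genes. Reads were assigned by strand, and whether the strand setting of the counting matches that of the library kit was not tested, a limit that holds for every level given here, including those of genes with no overlap. Levels use the deposited gene length, the union of all exons, which is at least 2 times the principal coding transcript in 8 of the 49 genes. Principal transcript lengths were an alternative added after seeing the data. Several orders that change with them are given below, and others may change too.

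All 49 genes were detected, taking 1 TPM or more in each of the 3 libraries as detected, where 39.8% of all protein-coding genes were; this count describes the list, whose choice was not independent of these data. At 10 TPM or more in each library 48 of 49 remained, against 18.6% of protein-coding genes, and Wdr12 was the gene below it. The median of the members' mean levels was 93.5 TPM, with library medians of 129, 101 and 64.3 TPM in replicates 1, 2 and 3. Detected protein-coding genes as a whole had a median of 14.1 TPM. The mean level was 100 TPM or more in 24 members and 500 TPM or more in 2, the nucleolar proteins Npm1 and Ncl. In bulk RNA of this kind, fewer cells that express a gene and less RNA per cell cannot be told apart.

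**Figure D1:**
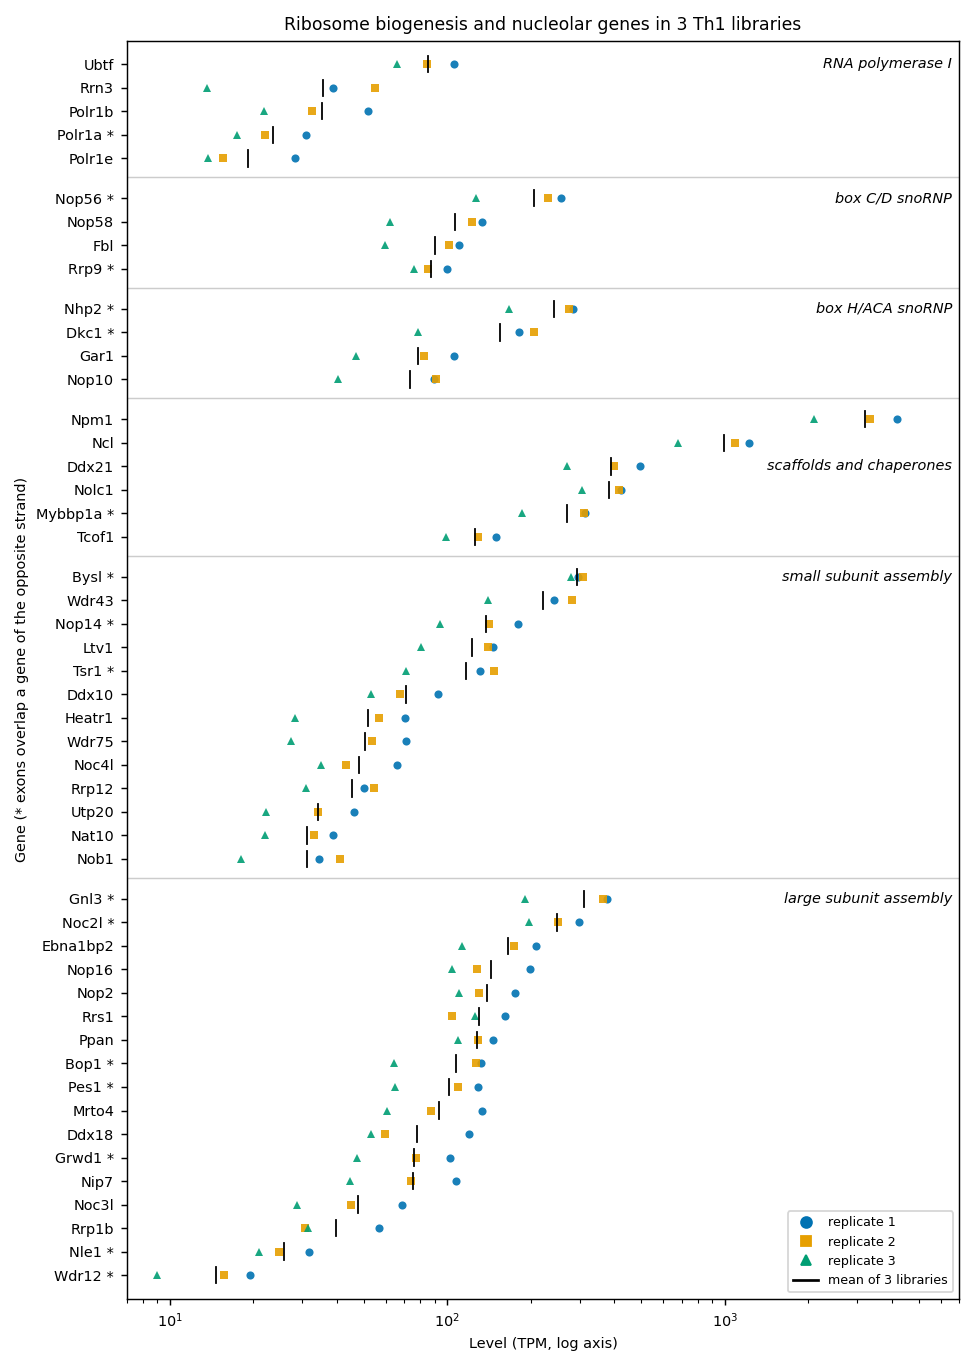
Level of each of the 49 genes in TPM (log axis) in replicates 1 (circles), 2 (squares) and 3 (triangles), grouped by role and ordered within a group by the mean of the 3 libraries (black bar). An asterisk marks the 16 genes whose exons share bases with a gene of the opposite strand; means run from 14.7 TPM for Wdr12 to 3203 TPM for Npm1, and the triangle lies lowest in 47 of 49 genes.

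Nucleolar scaffolds and chaperones were the highest group, with a median of 385 TPM over 6 genes. Npm1 (nucleophosmin), an abundant histone and ribosome chaperone, lies on the minus strand of chromosome 11 (mm10, 33152287 to 33163206) and had 4187, 3323 and 2099 TPM in replicates 1, 2 and 3, from 25157, 11295 and 8894 counts. It ranked 8 among all protein-coding genes by mean level (3203 TPM ± 1049; SD, n = 3). Ncl (nucleolin), an RNA-binding protein of the nucleolus on the minus strand of chromosome 1 (86344719 to 86359400), had 1221, 1089 and 675 TPM and ranked 55. Npm1 and Ncl together held 48.0%, 47.0% and 46.0% of all counts of the 49 genes, a share that varied by 0.982 percentage points (SD, n = 3) although the members' own share of all counts was 2.33%, 2.11% and 1.53%. Below them came the RNA helicase Ddx21 with 494, 398 and 271 TPM and Nolc1, a chaperone that binds both kinds of snoRNP, with 423, 416 and 305 TPM. Ddx21 and Nolc1 exchanged order between libraries, since Nolc1 was the higher in replicates 2 and 3. With principal lengths Nolc1 had the higher mean, 362 TPM against 336 TPM for Ddx21. Mybbp1a, a nucleolar protein that represses several transcription factors, had 270 TPM ± 73.2, and Tcof1 (treacle), which links RNA polymerase I to the processing machinery, had 126 TPM ± 25.7 and was the lowest of the group.

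The RNA polymerase I genes had the lowest median of the 6 groups, 35.4 TPM over 5 genes. Ubtf, which binds the ribosomal DNA and opens it for transcription, had 106, 84.6 and 65.7 TPM and was the highest of the 5 in every library. The catalytic subunits were lower: Polr1b had 52.0, 32.4 and 21.8 TPM and the largest subunit, Polr1a, 30.9, 22.0 and 17.5 TPM. The accessory subunit Polr1e had 28.3, 15.5 and 13.7 TPM, below both catalytic subunits in each library. Rrn3, the initiation factor that brings the polymerase to the promoter, had 38.7, 54.9 and 13.6 TPM, from 314, 252 and 78 counts. Its highest value was in replicate 2 and its SD of log2(TPM + 1), 1.00, was larger than that of any other member.

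The core proteins of the box C/D snoRNP lay between 90.3 and 205 TPM. Nop56 had 257, 231 and 126 TPM, its paralog Nop58 134, 123 and 62.3 TPM, and the methyltransferase Fbl (fibrillarin) 110, 101 and 59.8 TPM. The order Nop56, Nop58, Fbl was the same in all 3 libraries, and the log2 range between the highest and lowest was 1.16 ± 0.08 (SD, n = 3). The genes' own SDs of log2(TPM + 1) were 0.47 to 0.60. A shift shared by a whole library enters these SDs but cancels in the range, so the 2 cannot be compared. The order of Nop56, Nop58 and Fbl depended on the length used to scale the counts. The deposited length is 6.28 times the principal coding transcript for Nop58, 3.52 times for Fbl and 2.18 times for Nop56. With principal lengths the means were 527 TPM for Nop58, 353 TPM for Nop56 and 251 TPM for Fbl, and the log2 ratio of Nop56 to Nop58 turned from 0.96 ± 0.06 to -0.57 ± 0.06. Rrp9, a protein of the U3 snoRNP that takes part in the early cuts of the precursor, had 99.8, 85.3 and 75.9 TPM.

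In the box H/ACA snoRNP the levels spread further. Nhp2 had 285, 274 and 167 TPM and Dkc1 (dyskerin), the pseudouridine synthase, 181, 205 and 78.6 TPM. Gar1 had 106, 82.3 and 47.0 TPM and Nop10 89.2, 91.2 and 40.3 TPM. Nhp2 and Dkc1 were above Gar1 and Nop10 in every library. The log2 ratio of Nop10 to Gar1 was -0.11 ± 0.22 (SD, n = 3) and changed sign in replicate 2, a difference within the spread. With principal lengths it was -0.54 ± 0.22 and Nop10 was the lower in all 3 libraries. The log2 range of the complex was 1.80 ± 0.20. Nhp2 and Dkc1 both share exon bases with an opposite-strand gene, 44 and 45 bases, and Gar1 and Nop10 share none.

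Assembly factors of the small subunit had a median of 51.9 TPM over 13 genes. Bysl, which stays on the pre-40S particle from the nucleolus to the nuclear pore region, was the highest at 296, 307 and 279 TPM, followed by Wdr43, one of the first proteins to bind the growing transcript, at 243, 281 and 140 TPM. Bysl had the smallest SD of log2(TPM + 1) of the members, 0.07, in TPM over all genes, while its count in replicate 3 was 0.665 times that in replicate 1, where the median member was at 0.378 times. In TPM over coding genes, an alternative added after seeing the data, it had 549, 619 and 697 TPM and an SD of 0.17, and Ppan had the smallest SD, 0.04. The other 2 early-binding proteins on the list were lower: Heatr1 had 51.9 TPM ± 21.6 and Wdr75 50.6 TPM ± 22.0. Nop14, a protein of the early small-subunit particle, had 138 TPM ± 42.5, and the late factors Ltv1 and Tsr1 had 122 TPM ± 36.4 and 116 TPM ± 40.2. Nob1, the nuclease that makes the last cut of 18S ribosomal RNA, had 34.6, 41.2 and 18.0 TPM with a mean of 31.3 TPM ± 11.9. Nat10, which acetylates 18S ribosomal RNA, was indistinguishable from it at 31.3 TPM ± 8.43. The large scaffold Utp20 had 34.1 TPM ± 11.9. These 3 were the lowest of the 13, Nob1 by mean the lowest, but with principal lengths Nob1 had 51.9 TPM and Nat10 46.0 TPM, and Utp20, at 31.1 TPM, was the lowest. The helicase Ddx10, Noc4l (the partner of Nop14) and Rrp12 had 71.0, 48.0 and 45.2 TPM.

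Assembly factors of the large subunit had a median of 101 TPM over 17 genes. Gnl3 (nucleostemin), a nucleolar GTP-binding protein, was the highest at 377, 364 and 191 TPM, although with principal lengths Ppan had a mean of 244 TPM and Gnl3 237 TPM. Noc2l followed with 299, 250 and 196 TPM, while Noc3l, which forms a heterodimer with Noc2 in yeast, had 68.9, 45.1 and 28.8 TPM and was below Noc2l in each library. The trimer of Pes1, Bop1 and Wdr12, called PeBoW, is needed for maturation of 28S and 5.8S ribosomal RNA. Pes1 had 129, 109 and 64.9 TPM, Bop1 133, 127 and 64.3 TPM, and Wdr12 19.5, 15.7 and 9.00 TPM. Bop1 and Pes1 did not differ beyond their spread (log2 ratio 0.08 ± 0.12; SD, n = 3), and the log2 range of the trimer was 2.79 ± 0.13. The deposited length of Wdr12, 11955 bases, is 3.68 times that of its principal transcript, and with principal lengths the range was 1.00 ± 0.11 with Wdr12 still the lowest.

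Of the other large-subunit factors, Ebna1bp2 had 165 TPM ± 48.4, Nop16 144 TPM ± 49.5, the 28S methyltransferase Nop2 139 TPM ± 33.4 and Ppan 128 TPM ± 18.4. Rrs1, which helps to place the 5S particle, had 162, 104 and 126 TPM and was lowest in replicate 2. Rrp1b had 56.8, 30.7 and 31.6 TPM and was also lowest in replicate 2, at nearly the level of replicate 3. Mrto4, a placeholder for the stalk protein P0, had 93.5 TPM ± 36.7, the helicase Ddx18 77.5 TPM ± 36.6, Grwd1 75.8 TPM ± 27.7 and Nip7 75.3 TPM ± 31.4. With principal lengths Mrto4 had a mean of 207 TPM, above Noc2l at 203 TPM and Ebna1bp2 at 157 TPM. Nle1, which is released from the pre-60S particle by a large ATPase, had 25.8 TPM ± 5.42, above only Wdr12 in this group. With principal lengths Nle1 was the lowest of the 17 at 37.1 TPM, close to Noc3l at 37.5 TPM, and Wdr12 had 42.7 TPM.

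Genes of the same machinery outside the list were read as a reference, 139 genes grouped by function, of which 137 were found. Of these 132 were detected and their median level was 42.6 TPM. All 15 RNA polymerase I genes, 11 snoRNP genes, 42 small-subunit genes and 44 large-subunit genes found were detected. The highest of each were Polr2f, a subunit shared by the 3 nuclear RNA polymerases (241 TPM ± 54.5), Ruvbl2, an ATPase of snoRNP assembly (149 TPM ± 32.8), Pno1, a 40S assembly factor (156 TPM ± 49.3), and Rsl1d1, a nucleolar protein with a ribosomal L1 domain (436 TPM ± 162). In the exosome, which trims and degrades precursor RNA, 14 of 15 genes were detected and Exosc3 was the highest at 107 TPM ± 24.3. Exosc6, which encodes a ring subunit of this complex, had no count in any library. A count of 0 allows up to 3 counts in each library, for counting error alone.

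The Myc network was the list with the largest share not detected, 6 of 10 genes being detected and 3 not. Myc had 251, 202 and 159 TPM, above the median member in each library, and its partner Max had 59.0, 54.5 and 32.3 TPM. Its paralog Mycn had no count, and Mxd1 and Mxd4, repressors that compete for Max, were under 1 TPM in every library. Mxd3, the highest of the list at 222 TPM ± 36.6, shares 104 exon bases with an opposite-strand gene, and Mxi1 was above 1 TPM in replicates 1 and 3 alone.

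**Figure D2:**
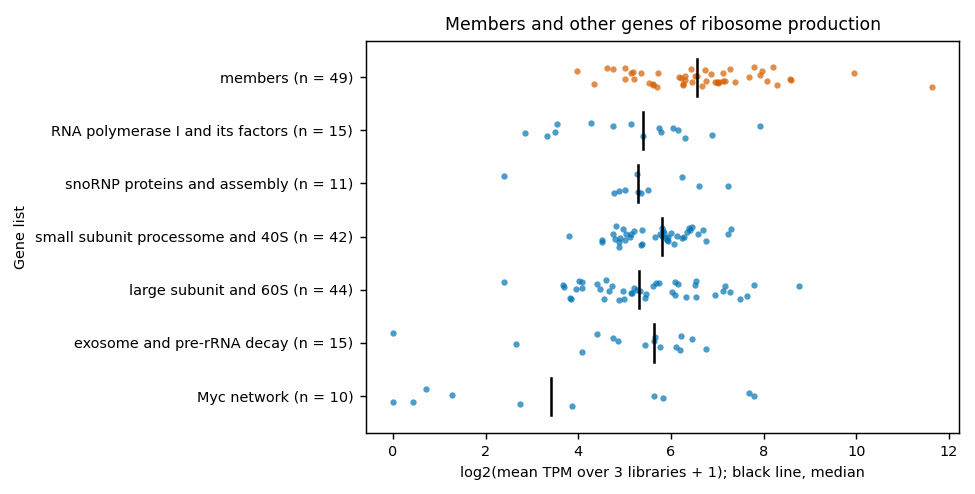
Mean level over 3 libraries, as log2(mean TPM + 1), of the 49 members (top row) and of the other genes of ribosome production by list, 1 point a gene with its place within a row set for legibility, and the median as a black line. The member median of 93.5 TPM lies to the right of the medians of all 6 lists, of which the Myc network has the lowest, 9.59 TPM.

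Promoter sequences of RefSeq (GRCm38.p6, 250 bases before and 50 after each start) were matched for 43 of the 49 genes, and none for Fbl, Tcof1, Npm1, Rrp12, Bop1 and Rrs1. The E-box CACGTG, which reads the same on both strands and is the core site of Myc with Max, stood in 10 of 43 (23.3%), against 9.18% of 16469 protein-coding genes. A gene can have more than 1 window. By window it stood in 10 of 52 member windows (19.2%), against 8.03% of coding windows and 7.15% of all 32851 windows. These protein-coding genes include undetected ones, and no motif share was taken over detected genes alone. In 8 of the 10 it lay in the 50 bases after the RefSeq start, a stretch that held it in 1.36% of protein-coding genes. In the 250 bases before the start 2 of 43 (4.65%) had it, against 7.83% of protein-coding genes. The split at the start was made after seeing the data, and the start is that of RefSeq. These 8 are shown because the position of the motif is what they share; they read 5′ to 3′ on the gene's strand with the E-box in capitals, ordered by mean level:
Mybbp1a, chr11:72441357-72441376: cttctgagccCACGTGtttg
Wdr43, chr17:71616222-71616247: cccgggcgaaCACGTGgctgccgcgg
Ltv1, chr10:13193094-13193119: cctgtggaccCACGTGtggagctgcc
Tsr1, chr11:74898094-74898119: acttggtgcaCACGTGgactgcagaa
Pes1, chr11:3963967-3963992: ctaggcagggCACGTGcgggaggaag
Grwd1, chr7:45830740-45830765: gccggagtcgCACGTGtgaaaccgga
Utp20, chr10:88826765-88826787: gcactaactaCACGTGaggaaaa
Nle1, chr11:82908357-82908382: ggttctcctcCACGTGgggacgcagg

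Counted from 1 at the first base after the RefSeq start, the motif begins at base 41 in Mybbp1a, 18 in Wdr43, 29 in Ltv1, 25 in Tsr1, 3 in Pes1, 35 in Grwd1, 38 in Utp20 and 24 in Nle1. The deposited gene starts used elsewhere differ from those of RefSeq in part, so the position depends on the annotation. By the deposited starts, 45830944 for Grwd1 and 13193168 for Ltv1, the motif of these genes lies beyond the first 50 bases. In the rest of the 8 it stays within them. The share of protein-coding genes by deposited starts was not counted. Ltv1, Grwd1, Utp20 and Nle1 lie on the minus strand and the other 4 on the plus strand. The flanking bases differ between the 8, which belong to scaffold, small-subunit and large-subunit groups. The 2 genes with the motif before the start are Nop2, at 60 bases, and Rrn3, which has it at 215 and at 48 bases. Members with an E-box in the window had a median of 109 TPM and the other 33 with a window 85.3 TPM, and their ranges overlapped (25.8 to 270 TPM and 14.7 to 995 TPM). Other motifs were chosen after seeing the data and read on either strand. CCGGAA, the core site of ETS factors, stood in 19 of 43 (44.2%) against 21.6% of protein-coding genes. By window it stood in 20 of 52 member windows (38.5%), against 19.2% of coding windows and 14.9% of all windows. The TATA motif TATAAA stood in 3 of 43 (6.98%) against 14.3% of protein-coding genes. By window these shares were 5.77% for members, 12.1% for coding windows and 13.6% for all windows. A match to one of these motifs is never a match to another, though matches may overlap at their ends. No factor's binding was measured in these samples.

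**Figure D3:**
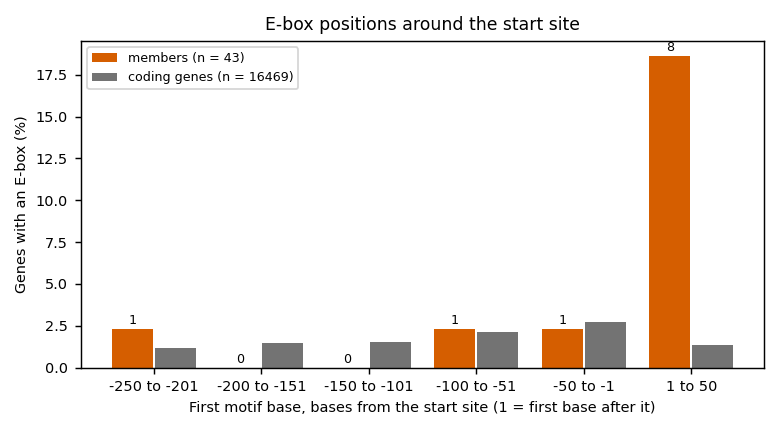
Share of genes (%) whose promoter window has an E-box beginning in each stretch of 50 bases, from 250 bases before the RefSeq start to 50 after it, for 43 members (orange, with the number of genes above each bar) and 16469 protein-coding genes (grey). In the stretch after the start the bars are at 18.6% and 1.36%; a gene with 2 motifs counts in both stretches.

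Some start sites of members faced a neighbour. In 10 of 49 (20.4%) a coding gene on the other strand, running the opposite way, started within 1000 bases upstream of the annotated start. The same held for 6.86% of all protein-coding genes and 12.3% of the detected ones. Head-to-head pairs that overlap at their starts were not counted in any of these shares. Among members these include Rrp9 with Parp3, Wdr12 with Carf and Pes1 with 4930556J24Rik. The distances were 11 bases for Mrto4 and Emc1, 22 for Ebna1bp2 and Cfap57, 34 for Noc4l and Ddx51, 49 for Gnl3 and Pbrm1, 90 for Bysl and Med20, 117 for Nop16 and Higd2a, 176 for Bop1 and Hsf1, 188 for Nip7 and Cog8, 231 for Nop14 and Grk4, and 303 for Polr1a and Ptcd3. The partners were named because of this distance, after their values were seen. The member was the higher of the pair in all 3 libraries in 9 of 10, most widely for Ebna1bp2 (208, 175 and 113 TPM), whose partner Cfap57 had no count. The same share was not counted for other head-to-head pairs. Members are high as a list, with a median of 93.5 TPM against 14.1 TPM for detected protein-coding genes, so the 9 of 10 says little about the pairs. The partners Emc1 and Med20 share 1956 and 1569 exon bases with a gene of the opposite strand, and the other partners share none. Gnl3 had 311 TPM ± 104 and its partner Pbrm1 18.1 TPM ± 6.21. Polr1a and Ptcd3 did not differ beyond their spread, at 23.5 TPM ± 6.80 and 24.4 TPM ± 10.2.

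Exons of 16 of the 49 genes (32.7%) shared at least 1 base with exons of a gene on the opposite strand, in 16 pairs. This held for 22.1% of all protein-coding genes, detected or not. Exon bases lay inside an opposite-strand gene for 17 of 49 members and 2264 of 5314 protein-coding genes of mean 10 TPM or more. By this measure, beside expressed genes, the members' share was the lower. In the 16 pairs the genes met tail to tail in 10 and head to head in 4, and the neighbour lay inside the member in 2. The neighbour had more counts per kilobase than the member in all 3 libraries in 6 pairs and fewer in all 3 in 10. It was the higher in 5 of 7 pairs that share 100 bases or more and in 1 of 9 that share fewer. The largest overlap, 1240 bases, was that of Tsr1 with Srr (serine racemase): Tsr1 had 1131, 721 and 432 counts and Srr 10139, 6831 and 8392. Noc2l, which shares 598 bases with Samd11, had 1933, 915 and 895 counts against 8076, 4228 and 7604. Nop14 and Polr1a each contain an antisense RNA gene, Gm15522 with 1876, 1239 and 1547 counts against 1103, 492 and 410 for Nop14, and Gm26628 with 943, 394 and 800 against 827, 333 and 331 for Polr1a. Pes1 had 879, 422 and 312 counts against 3301, 1604 and 2629 for 4930556J24Rik, and the log2 ratio of Pes1 to it per kilobase was -3.61 ± 0.67 (SD, n = 3). In these 5 pairs the member was the lower per kilobase in every library, most so in replicate 3. The sixth such pair was Nle1 with Fndc8, at a log2 ratio of -0.44 ± 0.37.

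In the 10 pairs the other way, Bysl, with 2572, 1511 and 1711 counts, shares 361 bases with Ccnd3 (cyclin D3), which had 396, 196 and 242, and its log2 ratio of 4.01 ± 0.12 was stable between libraries. That of Nop56 to Idh3b, which share 5 bases, was 2.29 ± 0.03. The other 8 were Mybbp1a with Spns2, Wdr12 with Carf, Grwd1 with Gm45441, Dkc1 with Mpp1, Nhp2 with Rmnd5b, Bop1 with Mroh1, Rrp9 with Parp3 and Gnl3 with Glt8d1. From replicate 1 to replicate 3 the counts of the 6 members with the higher neighbour changed to between 0.355 and 0.468 times. Those of their neighbours changed to between 0.775 and 0.942 times, and the library total to 0.591 times. The 6 members were near the median of the 32 members with no exon base inside an opposite-strand gene, 0.380 times. In the 10 pairs with the lower neighbour, members changed to between 0.306 and 0.665 times and neighbours to between 0.359 and 1.25 times. Across the series 69 of 87 noncoding genes that lie nested in an opposite coding gene's exons (at least 500 bases, 90% inside, 30 counts in all) exceeded that gene per kilobase in all 3 libraries. Csf1r, a macrophage marker that shares 871 exon bases with an opposite-strand gene, had 124 TPM ± 12.7 while the other 3 macrophage markers had no count. Whether reads of 1 gene of a pair were counted on the other, or whether the strand setting was the kit's, was not tested. The median level was 127 TPM over the 16 overlapped members and 78.3 TPM over the other 33.

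**Figure D4:**
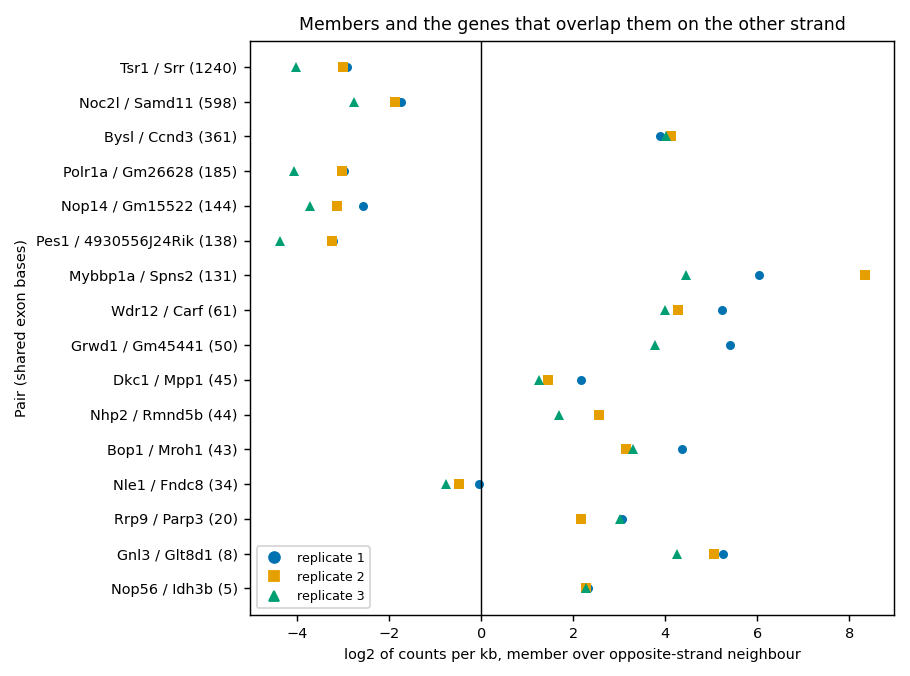
Log2 ratio of counts per kilobase, member over its opposite-strand neighbour, in each library for the 16 pairs, ordered by the number of shared exon bases (in brackets). Pairs left of 0 have the higher neighbour; 5 of the 7 pairs with at least 100 shared bases lie there, and Grwd1 has no point in replicate 2 because Gm45441 had no count.

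Most members differed between libraries in the same direction. In TPM, 47 of 49 were lowest in replicate 3, the exceptions being Rrs1 and Rrp1b, and so were 74.9% of the 5314 protein-coding genes with a mean of at least 10 TPM. The median deviation from a gene's own mean of log2(TPM + 1) was 0.37, 0.11 and -0.51 for members and 0.32, 0.14 and -0.46 for those protein-coding genes in replicates 1, 2 and 3. The share of counts on genes with opposite-strand exons, 71.6% in replicate 3, moved with this, and its part in the shift was not tested. When levels were scaled over clear genes alone, those with no exon base inside an opposite-strand gene, 32 members remained and 13 of them were lowest in replicate 3, beside 47.7% of 3050 clear protein-coding genes. The median deviations of these members were then 0.08, -0.08 and -0.05. The median ratio of replicate 3 to replicate 1 was 0.535 in TPM over all 49 members. Over the 32 clear members it was 0.539 in TPM and 0.934 on the clear-gene scale. Clear protein-coding genes had 0.511 and 0.886. The clear-gene scale gives clear genes the same sum in each library, so a small shift of typical clear genes is partly built in.

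**Figure D5:**
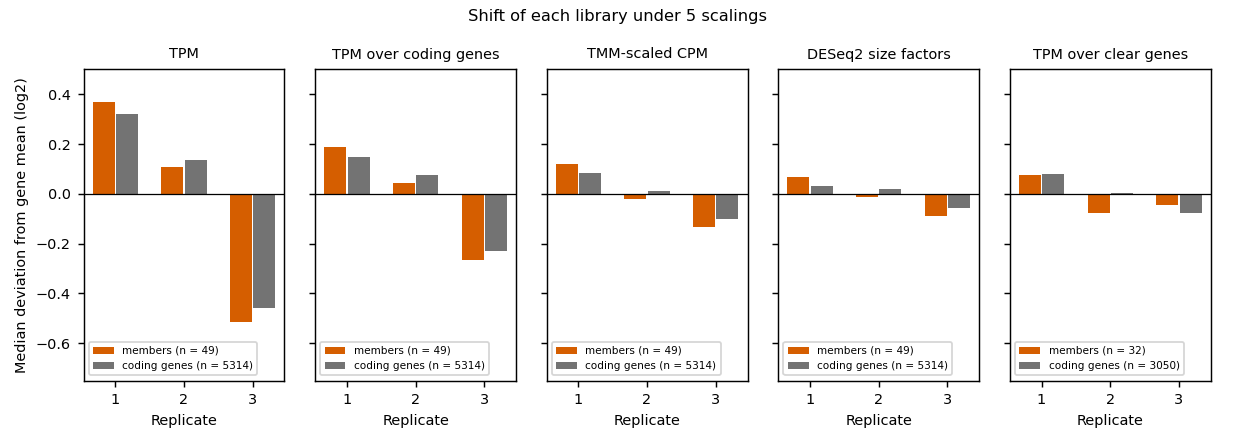
Median deviation of each library from the gene's own mean (log2) under 5 ways of scaling the libraries, for members (orange) and protein-coding genes with a mean of at least 10 TPM (grey). Replicate 3 is at -0.51 for members in TPM (left) and at -0.05 when the levels of 32 members are scaled over clear genes (right).

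On that scale several members were nearly level between libraries. Ncl had 3924, 3844 and 3762 TPM over clear genes, an SD of log2(TPM + 1) of 0.03 where counting error alone gives 0.01. Fbl had 353, 358 and 333 TPM and an SD of 0.05, and Nat10 124, 117 and 123 TPM and an SD of 0.04, both below their counting errors of 0.06 and 0.08. Npm1 had 13455, 11725 and 11694 TPM over clear genes, its 2 lower values lying close together. The median SD of members was 0.21 and that of clear protein-coding genes 0.27. Rrn3 stayed the most variable with 124, 194 and 76.0 TPM over clear genes and an SD of 0.67, above a counting error of 0.12. Rrs1 (0.47), Ddx18 (0.43) and Rrp1b (0.42) followed, each lowest in replicate 2. The biological coefficient of variation, the relative spread beyond counting error, had a median of 0.288 over members and 0.308 over all 9466 genes kept by edgeR. The order of these medians depended on the library left out: without replicate 2 they were 0.328 and 0.307, without replicate 1 0.333 and 0.336, and without replicate 3 0.189 and 0.280. For this coefficient edgeR draws each gene's value toward that of genes of similar level, so it says little about a single member's own spread. Rrn3 had 0.307 and Nat10 0.281, although their SDs over clear genes were 0.67 and 0.04.

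Small RNA genes lie within 8 of the 49 genes on the same strand: Nop56, Nop58, Dkc1, Ncl, Wdr43, Tsr1, Ppan and Gnl3 contain 23 snoRNA genes, and Ncl also contains mmu-mir-3535. Guide RNAs of snoRNPs are often cut from introns of host genes, among them genes that make snoRNP and ribosome factors. How many genes outside the list contain a snoRNA gene was not counted, so the 8 of 49 have no share to be set against. Counts on the 23 snoRNA genes were few, 21, 37 and 9 in all in replicates 1, 2 and 3. Ncl alone had 28048, 14155 and 10939 on its exons. All 9 snoRNA genes that share bases with an exon of the host were at 0, as was mmu-mir-3535, and 9 of the 14 that lie wholly in introns had a count. Snord19 in Gnl3 had 2, 23 and 6 counts, Snord91a in Tsr1 3, 7 and 1, Snord69 in Gnl3 5, 5 and 0, and Snord53 in Wdr43 7, 0 and 1. The rest of the 9 had 1 or 2 counts over the 3 libraries together. Whether the counts in introns came from snoRNAs or from RNA of the host gene was not tested. Across all 1507 snoRNA genes 139 (9.22%) had a count, a share not limited to those in introns of detected genes. A gene at 0 here allows up to 3 counts per library, and the counting recorded no option for reads that fall on 2 genes, so a count of 0 on a gene inside a host exon does not show that its RNA is absent.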

How the data were processed

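RNA-seq was analysed for 3 T-helper 1 libraries (1 group; replicate numbers from the labels). The authors deposited a raw count for each gene with its length. Per the file headers, read pairs with both ends mapped were assigned by featureCounts (v1.4.6-p4, strand option 1) to exons of the GENCODE vM13 annotation of mm10, without options for multi-mapping or multi-overlapping reads. File names in the headers contain "star2" and "stranded". Neither the version of the aligner nor the library kit's strand is given in the sources used here.

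TPM was computed from the counts and the deposited lengths. Names and biotypes came from GENCODE vM21 (50376 of 50600 identifiers). Log values use a pseudocount of 1. Clear genes (15865 of 21764 coding) have exons that lie wholly outside genes of the other strand. Overlaps used the deposited exon coordinates. Dispersion came from edgeR 4.0.16 with an intercept alone after a filter on low counts, tested on simulated data; TMM and DESeq2 1.42.0 size factors were alternative scalings. Python 3.11.15, pandas 2.3.3 and R 4.3.3 were used.

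The members and lists were chosen with earlier results of these data known. Genes named are the 49 members, the highest and the undetected genes of each pathway list, opposite-strand and inner genes of members, and the cell type markers; others are said to be chosen later, and 1 marker is not reported here. With 1 group there is no condition to compare, so no p-value is given.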

Additional observations from a re-analysis of the deposited data

How the results depend on the processing

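Detection of all 49 members held at 5 TPM in every library, at 1 TPM in any library, at 1 FPKM and without each replicate, and 127 to 133 of the other pathway genes were detected under the alternatives. The median member level was 46.77 in FPKM, 191 in TPM over coding genes and 315.9 for clear members in TPM over clear genes, and 80.59 to 110 TPM without 1 replicate. The median log2 SD of 0.489 became 0.2261 with TMM, 0.1947 with DESeq2 size factors and 0.2096 over clear genes, and 0.2116 to 0.624 without 1 replicate, lowest without replicate 3. The range of library shifts, 0.882, became 0.2549 with TMM, 0.1567 with DESeq2 size factors, 0.4556 in TPM over coding genes and 0.1551 over clear genes, and 0.2564 to 0.8825 without 1 replicate, again lowest without replicate 3. The median biological coefficient of variation was 0.123 from DESeq2 gene-wise dispersions (0.237 over all genes) and 0.1889 to 0.3334 without 1 replicate. Members lowest in replicate 3 were 47 in TPM, 38 in TPM over coding genes, 32 with TMM, 30 with DESeq2 size factors and 13 of 32 over clear genes. Opposite-strand overlaps of at least 50 bases left 9 members and of at least 200 bases 3, by construction. The log2 range of the box C/D core was 1.041 by principal transcript length and 0.2057 over its clear genes. That of the box H/ACA core was 0.2013 over its clear genes, and that of PeBoW 0.9997 by principal length. Clear genes leave out Nop56 of the box C/D core, the highest by deposited length but not by principal length. Of the box H/ACA core they leave out Nhp2 and Dkc1. The E-box before the start was found in 2 members. The cause of the other changes was not tested. Depth, 2568928 to 4764598 counts a library, limits members such as Rrn3 and Nop10 with counts under 100 in replicate 3. No paired analysis was possible because the series has 1 group. Scalings other than those planned, principal lengths and start distances were added after seeing the data.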
